A study of Homo sapiens with 6 samples.

Results

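DEAD and DEAH box helicases are enzymes that use ATP to open RNA helices or to strip proteins from RNA. They are named after a short run of amino acids in the ATP-binding core, and different members act in splicing, mRNA export, ribosome assembly, translation initiation and mRNA decay. eIF4B, the protein whose RNA contacts were mapped here, stimulates the RNA helicase eIF4A, which is itself a DEAD box protein but carries another type of gene name. The mRNAs described below are those of genes whose names start with DDX or DHX followed by a digit and that are annotated as protein coding in GENCODE release 44, so the rule uses the gene name and no measured value. Such a gene had at least 1 cross-link position in 51 cases, 35 DDX and 16 DHX genes, of the 54 that the annotation holds outside the Y chromosome. DDX4, DDX53 and DDX60 had no position in either cell line. The 51 genes stand among 13146 protein-coding genes with a position in either cell line.

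eIF4B iCLIP, which maps to the nucleotide where RNA was cross-linked by UV light to a protein pulled down with its antibody, was carried out in DoHH-2, a line of diffuse large B-cell lymphoma (DLBCL), and in GM01953, a control B-cell line. Neither line received a drug or a genetic change in these libraries. The 4 DoHH-2 and 2 GM01953 replicates were pooled by the authors into 1 table per cell line, so each value below is a single value without a replicate error, and each group stands on 1 line. No test between the cell lines was possible, and the intervals given are exact 95% intervals that cover counting error only. The count of a gene depends on how much of its mRNA is present as well as on how often eIF4B cross-links to each molecule, and the 2 cannot be told apart from these tables.

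DoHH-2 held 2033156 cDNA counts in all and GM01953 held 167197. A single count was therefore worth 0.492 CPM (counts scaled to a total of 1000000) in DoHH-2 and 5.98 CPM in GM01953. In the check of the cell type, 8 of the 9 B-cell and germinal centre markers had counts in DoHH-2 and all 9 had counts in GM01953. CD22 had 0 counts in DoHH-2 against 27 in GM01953, and MS4A1, the gene of CD20, had 13 and 152. The 6 markers of T cells, myeloid cells and liver had 0 counts in both.

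A choice of positions with high counts follows, not a ranking, since other positions of the same and of other members had as many or more counts. Each line gives 21 nt of the sense strand of GRCh38 centred on the cross-link position, which is the base in capitals. They are shown because the results on the leaders, the paralogues and the introns refer back to them.
DDX5 leader, 29 counts in DoHH-2, chr17:64506188-64506208, minus strand: aggcttcgccGtcatcgaggc
DDX5 leader, 13 counts in DoHH-2 and 3 in GM01953, chr17:64506233-64506253, minus strand: ttcggctggtGtcatcggtgt
DDX5 leader, 7 counts in GM01953 and 3 in DoHH-2, chr17:64506223-64506243, minus strand: gtcatcggtgTccttcctccg
DDX6 leader, 9 counts in DoHH-2 and 1 in GM01953, chr11:118786346-118786366, minus strand: gagcaagactTatatttatct
DDX39A start codon, 12 counts in DoHH-2, chr19:14413213-14413233, minus strand: tcttctcagcAtcatggcaga
DDX39B coding sequence, 19 counts in DoHH-2, chr6:31536604-31536624, minus strand: ctgcccgcatAtcgtcgtggg
DHX15 coding sequence, 14 counts in DoHH-2, chr4:24576443-24576463, minus strand: attctgctcaTtcaacgcatg
DHX9 coding sequence, 12 counts in DoHH-2, chr1:182852284-182852304, plus strand: gaaggagattTaccaacaacc
DHX36 start codon region, 11 counts in DoHH-2, chr3:154324430-154324450, minus strand: tgctggttctGacgggttgta
DDX39B intron 6, 15 counts in GM01953, chr6:31535033-31535053, minus strand: cccacccatcCatcgtctctt
DDX3X intron 7, 11 counts in GM01953, chrX:41343472-41343492, plus strand: gaaagaagccAtagatgatac

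The members together held 11369 counts at 8636 positions in DoHH-2, 0.559% of the table (0.549 to 0.570), and 682 counts at 375 positions in GM01953, 0.408% (0.378 to 0.440). The median member with a position held 123 counts in DoHH-2, against 54 for the median protein-coding gene, and 9 against 6 in GM01953. Per kb of mRNA exon the medians were 28.8 against 9.77 counts in DoHH-2 and 2.00 against 1.17 in GM01953. The counts were spread unevenly over the family, and the 5 highest members carried 40.2% of them in DoHH-2 and 43.5% in GM01953.

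**Figure D1:**
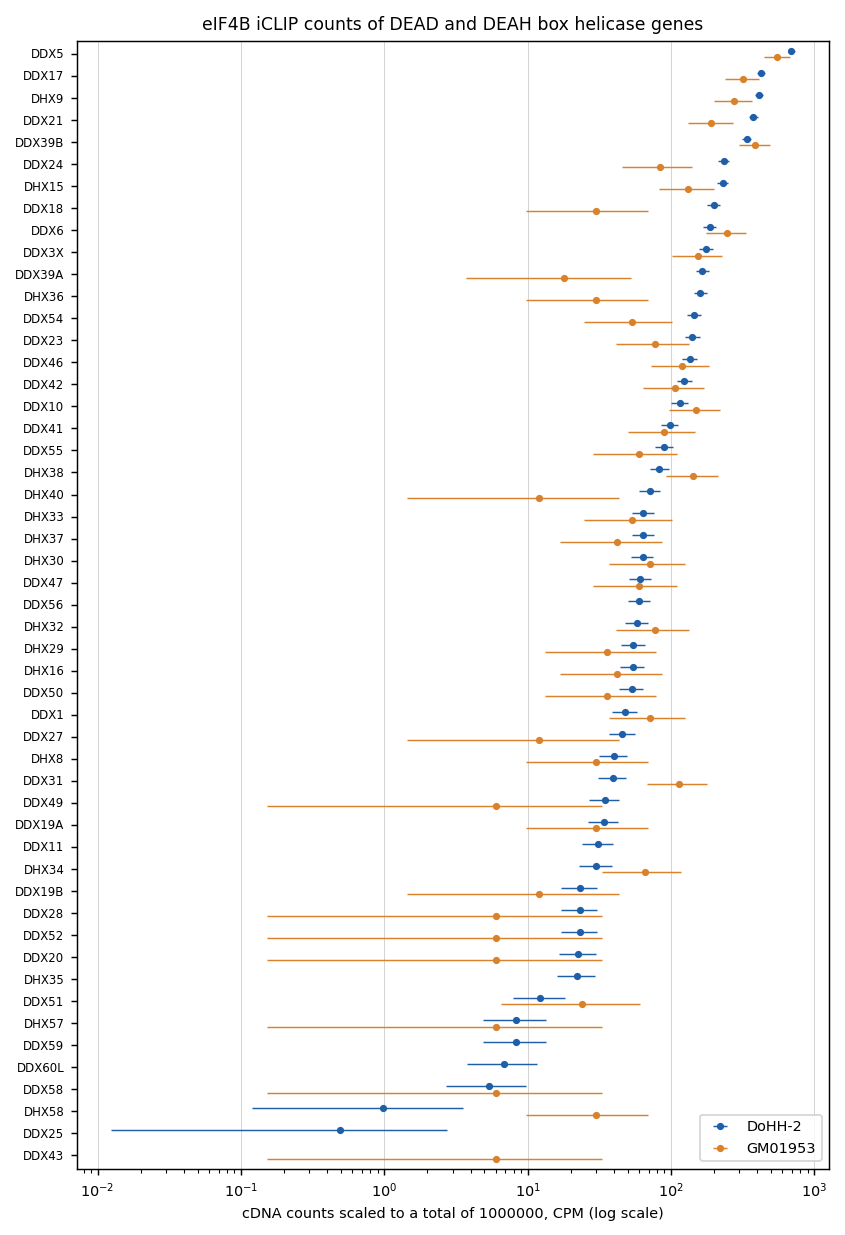
Counts of each of the 51 members in CPM on a log axis, for DoHH-2 and GM01953, with exact 95% counting intervals. A member without a point of a colour had 0 counts in that cell line. DDX5 is highest in both, at 694 and 550.2 CPM, and the GM01953 intervals are wide because a single count is worth 5.98 CPM.

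DDX5 and DDX17 were the highest 2 members in DoHH-2. They are close paralogues that act as co-regulators of transcription and splicing. DDX5 reached 1411 counts in DoHH-2 against 92 in GM01953, and DDX17 had 866 and 53. DHX9, also called RNA helicase A, unwinds double-stranded RNA and had 839 and 46 counts. DDX21, a helicase of the nucleolus, had 763 and 32, and DDX39B, which loads export factors onto mRNA, had 687 and 65. These 5 genes were also the highest of the family per kb of mRNA exon in DoHH-2 apart from DDX39A, whose 198 counts per kb lay between the 265 of DDX39B and the 156 of DHX9. DDX5 led that scale with 295 counts per kb and ranked 290 among all protein-coding genes. In GM01953 the highest 2 per kb were DDX5 with 20.6 and DDX39B with 16.7.

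By role, 11 members of splicing and of spliceosome release held 4163 counts in DoHH-2 against 269 in GM01953, and 16 members of ribosome assembly held 3283 and 154. The 7 members of translation and mRNA decay held 2173 and 147, and the 5 of mRNA export held 1141 and 75. The 3 members of innate immunity stood at the low end. DDX60L had 14 and 0 counts, DDX58, which encodes the RNA sensor RIG-I, had 11 and 1, and DHX58 had 2 and 5. The germ line gene DDX43 had 0 counts in DoHH-2 against 1 in GM01953, and the exact interval of a count of 0 reaches 3.69 counts. DDX25, also known from the germ line, had 1 and 0.

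A gene was taken as bound when positions with an FDR below 0.05 held more than 20 counts. The authors also required enrichment of iCLIP over total RNA, which was not computed here, so the call differs from theirs. In DoHH-2, 28 of the 50 members with a position were bound (56.0%), against 32.9% of all protein-coding genes with a position. In GM01953, 7 of 45 were bound (15.6%), against 8.36%. The 7 were DDX5 with 48 counts at such positions, DHX9 with 32, DDX6 and DDX39B with 28 each, DDX17 and DDX10 with 24 each and DDX3X with 23, and all 7 were also bound in DoHH-2. DDX6 acts in translational repression and promotes decapping of mRNAs through its partners, and DDX3X helps ribosomes through structured leaders. With the threshold raised in DoHH-2 by the ratio of the depths, 5 members were past it, against 4.09% of all protein-coding genes with a position: DDX5, DHX9, DDX21, DDX39B and DDX17. The part of depth in the numbers of bound members was not tested otherwise.

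The share of all counts that fell on a member was compared for the 24 members whose mean share over both lines equalled at least 10 counts in GM01953. A member with fewer than 10 counts in GM01953 could thus pass through its DoHH-2 share. DDX39A with 3 counts in GM01953, DDX18 and DHX36 with 5 each and DDX54 with 9 did so, all of them at least 2-fold higher in DoHH-2. The share of all members together was 1.37 times higher in DoHH-2 (1.27 to 1.48). Single members ranged from 0.346 to 9.24, with a median of 1.21, where the median of all 3353 protein-coding genes that passed the filter was 1.01. At least 2-fold higher in DoHH-2 were 5 of the 24 (20.8%), against 16.5% of those genes, and at least 2-fold higher in GM01953 was 1 (4.17%), against 18.0%. The interval excluded 1 for 11 members with a higher share in DoHH-2, against 23.9% of the genes that passed, and for 2 with a higher share in GM01953, against 24.6%. Of the 11, the interval came to hold 1 for DDX5 and DDX17 with histone and non-coding counts left out of the denominator, for DDX5, DDX17 and DHX9 on exons only, for 5 by number of positions and for 4 with an FDR below 0.05 only.

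DDX39A had the highest ratio, with 337 counts in DoHH-2 and 3 in GM01953 (9.24, 3.13 to 45.02). It acts in mRNA export like its near-identical paralogue DDX39B, which had 687 and 65 counts and a ratio of 0.869 (0.673 to 1.14). The 2 intervals did not overlap. The direction of the DDX39B ratio depended on the counting, at 1.43 (0.973 to 2.18) with an FDR below 0.05 only, 1.27 (0.865 to 1.93) on exons only and 1.05 (0.719 to 1.58) by number of positions. By positions the ratio of DDX39A was 4.95 (1.67 to 24.2), and this interval did not overlap that of DDX39B by positions. All counts of DDX39B sat at positions also listed under a second, overlapping gene, and reads that match both paralogues could have been split, so their levels are uncertain. Next came DDX18, of ribosome assembly, with 404 and 5 counts (6.64, 2.82 to 20.6), and DHX36, which resolves G-quadruplexes, with 327 and 5 (5.38, 2.28 to 16.7). DDX24 and DDX54, both of ribosome assembly, had 476 and 14 counts (2.80, 1.65 to 5.15) and 295 and 9 (2.70, 1.40 to 5.95). With an FDR below 0.05 only, DHX36 was at 3.002 (0.993 to 14.8) and DDX54 at 1.83 (0.814 to 5.11), and by number of positions DDX24 was at 5.04 (2.14 to 15.6). In GM01953 the 14 counts of DDX24 included 8 at 1 position, and the 5 counts of DHX36 included 3 at 1 position.

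The lowest ratio was that of DDX31, of ribosome assembly, with 80 counts in DoHH-2 and 19 in GM01953 (0.346, 0.208 to 0.605). In GM01953 its 19 counts lay at 7 positions, one of them with 7. Its ratio was 0.0327 (0.00937 to 0.0935) with an FDR below 0.05 only and 0.713 (0.330 to 1.83) by number of positions. DHX38, which acts in the second step of splicing, had 169 and 24 counts (0.579, 0.376 to 0.929), which became 0.251 (0.134 to 0.494) and 0.837 (0.466 to 1.66) in these 2 ways of counting. DDX6 with 380 and 41 counts (0.762, 0.551 to 1.08) and DDX3X with 358 and 26 (1.13, 0.760 to 1.76) had intervals that held 1. That of DDX3X changed direction to 0.747 (0.481 to 1.21) with an FDR below 0.05 only and was 1.77 (1.04 to 3.27) on exons only. Summed over roles, the ratio was 1.75 (1.49 to 2.07) for ribosome assembly, 1.27 (1.12 to 1.45) for splicing, 1.25 (0.990 to 1.602) for mRNA export and 1.22 (1.03 to 1.45) for translation and decay. The roles with few counts were at 0.370 (0.150 to 1.10) for innate immunity, 1.11 (0.634 to 2.13) for mitochondria, 4.48 (1.21 to 37.5) for germ line, SMN complex and DNA and 1.53 (0.924 to 2.71) for the others. In ribosome assembly 8 of 16 members passed the filter, and DDX18, DDX24 and DDX54 were at least 2-fold higher in DoHH-2 while DDX31 was at least 2-fold higher in GM01953.

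**Figure D2:**
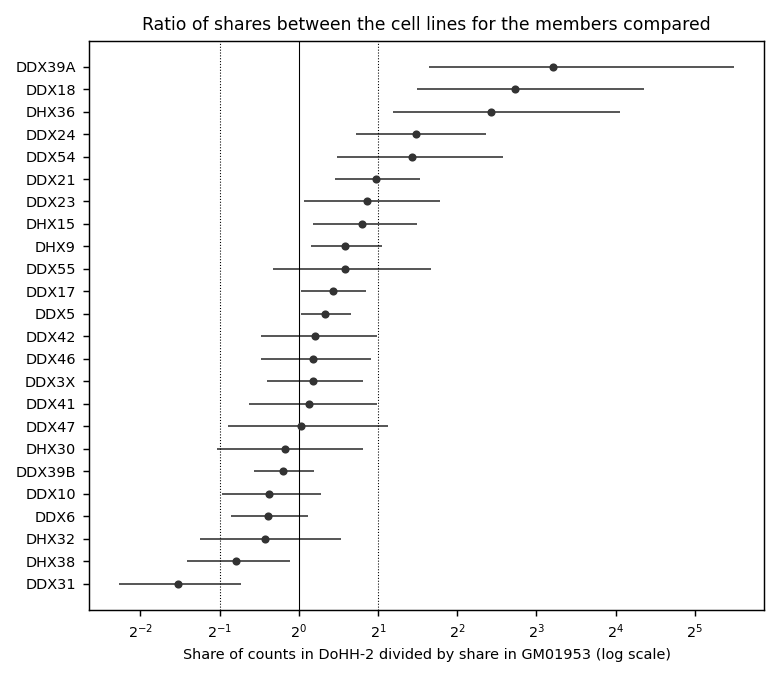
Share of counts in DoHH-2 divided by the share in GM01953 on a log axis for the 24 members compared, with exact 95% counting intervals. The solid line marks equal shares and the dotted lines a 2-fold difference. DDX39A, DDX18 and DHX36 lie farthest to the right and DDX31 farthest to the left.

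Helicases that do not carry a DDX or DHX name were taken from a list of 12. In DoHH-2 7 of them were bound, against 32.9% of all protein-coding genes with a position, and in GM01953 1 was, against 8.36%. Of the 8 that passed the filter, 5 were at least 2-fold higher in DoHH-2, against 16.5% of all protein-coding genes that passed. None was at least 2-fold higher in GM01953, against 18.0%. EIF4A1, the helicase subunit of the cap-binding complex eIF4F, had 771 counts in DoHH-2 and 26 in GM01953 (2.44, 1.65 to 3.76). EIF4A2, its close paralogue, had 513 and 24 (1.76, 1.17 to 2.77), and EIF4A3, of the exon junction complex, had 911 and 17 (4.41, 2.74 to 7.60). UPF1, of nonsense-mediated decay, had 258 and 18 (1.18, 0.731 to 2.02).

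Positions were placed on the MANE Select transcript of each member, and the regions of the start and stop codon took in 50 nt on either side of it. The coding sequence (CDS) held 44.6% of the member counts in DoHH-2 (43.7 to 45.5), against 33.6% over all protein-coding genes other than histone genes. In GM01953 it held 42.1% (38.3 to 45.9), against 33.9%. The CDS also makes up more of the mRNA length in the members, 59.8% against 43.9% in DoHH-2 and 60.6% against 43.3% in GM01953. The start codon region held 5.47% against 7.15% in DoHH-2 and 4.55% against 9.68% in GM01953, and the stop codon region 2.54% against 4.26% and 1.32% against 4.44%. The 3′ UTR held 19.9% against 25.1% in DoHH-2 and 17.0% against 17.4% in GM01953. The 5′ UTR held 5.93% against 6.34% in DoHH-2 and 9.97% against 10.3% in GM01953. With an FDR below 0.05 only, the order turned in DoHH-2, with 11.7% (10.8 to 12.7) against 9.67%. DDX5 held 797 of the 4571 member counts at such positions, and this share was not computed without DDX5. Over all positions, the members without DDX5 had 4.67% in DoHH-2 and 6.61% in GM01953. Per kb of region, with DDX5 included, the 5′ UTRs were the densest part of the member mRNAs in DoHH-2, with 194 counts per kb. The start codon region had 129, the stop codon region 56.1, the CDS 43.5 and the 3′ UTR 34.8. In GM01953 the densities were 22.3, 7.06, 1.94, 2.76 and 2.09 counts per kb in the same order. Over all protein-coding genes other than histone genes the start codon region was the densest in both lines, with 80.8 counts per kb in DoHH-2, where the 5′ UTR had 45.2, the stop codon region 46.5, the CDS 20.7 and the 3′ UTR 14.3.

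The members differed widely among themselves. DHX9 had 572 of its 839 counts in the CDS in DoHH-2 (68.2%) and DHX29, which binds the small ribosomal subunit, 87 of 111 (78.4%). DDX6 had 49 of 380 in the CDS (12.9%), 103 in the 5′ UTR (27.1%) and 185 in the 3′ UTR (48.7%). DDX21 had 343 of 763 in the 3′ UTR (44.95%) and DDX17 275 of 866 (31.8%). DDX39A had 59 of 337 in the start codon region (17.5%), where its highest position, shown above, lies 3 nt before the A of the ATG.

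**Figure D3:**
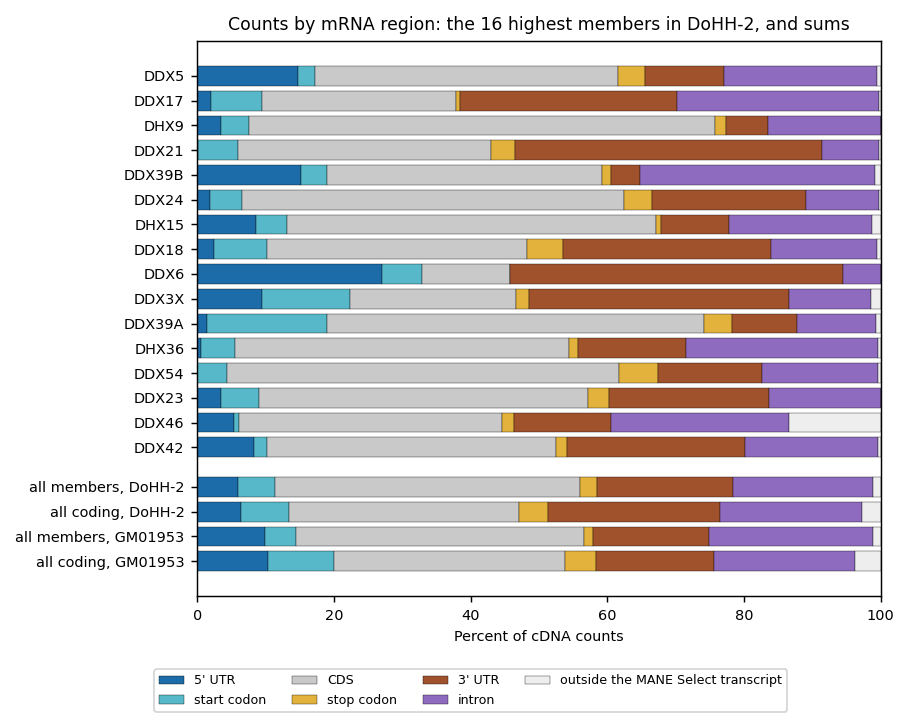
Percent of cDNA counts by mRNA region in DoHH-2 for the 16 members with the highest counts, and for all members and all protein-coding genes other than histone genes in both cell lines. The CDS takes 68.2% in DHX9 and 12.9% in DDX6, and the sums over all members have more CDS than the sums over all coding genes in both cell lines.

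A region was called dominant when it held at least 50% of the summed densities (counts per nt at positions with an FDR below 0.05), among genes with more than 20 such counts on the mRNA. This measure weighs a short region as much as a long one, and a region under 10 nt got no density. In DoHH-2 the 5′ UTR was dominant in 9 of 26 members, against 19.0% of 3572 protein-coding genes. These were DDX5, DDX39B, DHX15, DDX6, DDX3X, DDX23, DDX42, DDX46 and DHX33. The start codon region was dominant in 5, DHX36, DDX55, DDX47, DHX40 and DDX50, against 27.0%. The whole 5′ UTRs of DDX55 and DDX47, of 50 and 22 nt, lay in that region, so the 5′ UTR could not be called. It could also not be called for DDX21, DDX54 and DDX41, with 5′ UTRs of 56, 27 and 16 nt. The CDS was dominant in DHX37 alone, against 8.57%, the stop codon region in DDX1 alone, against 8.03%, and the 3′ UTR in DDX41 alone, against 12.3%. The other 9 members, DHX9, DDX21 and DDX17 among them, had no dominant region. On the longest coding transcript instead of MANE Select, the 5′ UTR was dominant in 6 and the start codon region in 9. Several of the calls on MANE Select rested on few counts, such as 10 of the 14 stop codon counts of DDX1 at 1 position and 11 of the 13 start codon counts of DHX36 at 1 position. In GM01953 3 members had more than 20 such counts on the mRNA, DDX5, DHX9 and DDX6. The 5′ UTR was dominant in each, against 24.5% of 543 protein-coding genes. The call of DHX9 rested on few counts, since its whole 5′ UTR held 4 counts at 2 positions in GM01953.

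The leader of DDX5, the whole 5′ UTR of 170 nt, makes up 4.61% of its mRNA. It held 230 of 1087 mRNA counts in DoHH-2 (21.2%, 18.8 to 23.7) and 31 of 76 in GM01953 (40.8%, 29.6 to 52.7). In DoHH-2 81 of its nucleotides had a count, from nt 3 to nt 162. The highest was nt 92 with 29 counts, and 48 counts lay within 5 nt of it, where GM01953 had 2. A second group lay at nt 47 with 13 counts in DoHH-2 and 3 in GM01953. The highest leader position in GM01953 was nt 57 with 7 counts, where DoHH-2 had 3, and within 5 nt of it were 11 counts in GM01953 and 32 in DoHH-2. The leader was thus covered in both cell lines but its highest nucleotide was not the same.

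The leader of DDX6, 334 nt and 5.45% of the mRNA, held 114 of 359 mRNA counts in DoHH-2 (31.8%, 27.0 to 36.8) and 18 of 40 in GM01953 (45.0%, 29.3 to 61.5). Its highest positions in DoHH-2 were nt 230 with 9 counts and nt 170 with 8, and in GM01953 within 5 nt of them were 2 and 0 counts. The leader of DDX3X, 91 nt and 1.96% of the mRNA, held 72 of 310 mRNA counts in DoHH-2 (23.2%, 18.6 to 28.3) and 6 of 14 in GM01953. That of DDX39B held 114 of 445 (25.6%, 21.6 to 29.9) in DoHH-2 and 4 of 28 in GM01953 (14.3%, 4.03 to 32.7). That of DHX9, by contrast, held 41 of 701 (5.85%, 4.23 to 7.85) in DoHH-2.

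**Figure D4:**
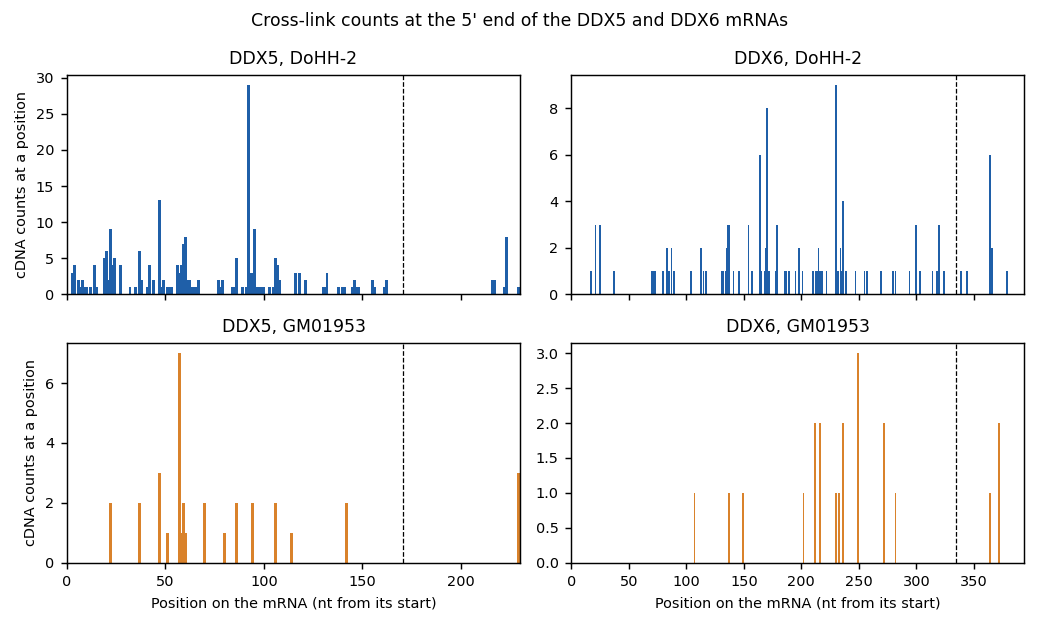
Counts at each position of the 5′ end of the DDX5 and DDX6 mRNAs in DoHH-2 (upper row) and GM01953 (lower row), in nt from the mRNA start. The dashed line marks the start of the coding sequence. In DDX5 the highest position is nt 92 with 29 counts in DoHH-2 and nt 57 with 7 counts in GM01953, and most counts of the window lie before the dashed line in all 4 panels.

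Introns of the MANE Select transcripts held 2324 member counts in DoHH-2 (20.4%) and 164 in GM01953 (24.0%), against 20.8% and 20.5% over all protein-coding genes other than histone genes. With an FDR below 0.05 only, they held 7.53% in DoHH-2 and 26.2% in GM01953, against 7.34% and 21.1%. In the members, 47.9% of the intron counts in DoHH-2 (45.9 to 49.99) and 56.7% in GM01953 (48.8 to 64.4) lay inside an exon of another annotated transcript of the same gene, against 21.4% and 20.96% over those genes. Intron 11 of DDX5, intron 11 of DDX17 and intron 6 of DDX39B together held 591 of the 2324 member intron counts in DoHH-2 (25.4%). In GM01953 they held 48 of the 164 (29.3%). Every count in these 3 introns lay in such an exon. They thus gave 591 of the 1114 member intron counts in such exons in DoHH-2 and 48 of the 93 in GM01953. The share without these 3 genes was not computed.

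Intron 11 of DDX5 (chr17:64500774-64502009, 1236 nt) is the last but one of 12 and held 201 of the 316 intron counts of the gene in DoHH-2 (63.6%, 58.0 to 68.9), on 28.4% of its intron length. That was 163 counts per kb, against 36.9 in the other introns and 360 in the CDS. In GM01953 it held 12 of 16. The microRNA genes MIR3064 and MIR5047 lie in it and covered 18 of the 201 counts. Intron 11 of DDX17 (chr22:38488116-38492055, 3940 nt), also the last but one of 12, held 207 of 256 in DoHH-2 (80.9%, 75.5 to 85.5) on 21.8% of the intron length, which was 52.5 counts per kb against 3.46 in the other introns and 118 in the CDS. In GM01953 it held 10 of 11.

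Intron 6 of 10 of DDX39B (chr6:31532912-31535366, 2455 nt) held 183 of 236 in DoHH-2 (77.5%, 71.7 to 82.7), or 74.5 counts per kb against 6.94 in the other introns and 235 in the CDS, and 26 of 37 in GM01953 (70.3%, 53.0 to 84.1). Of the 26, 15 lay at the single position shown above, where DoHH-2 had 0 counts at the same nucleotide and 2 within 5 nt. In GM01953 the 11 counts of DDX3X intron 7 likewise sat at 1 position with 0 counts within 5 nt in DoHH-2. The introns of DDX5, DDX17 and DDX39B thus carried fewer counts per kb than the CDS but more than the rest of the introns of the same gene, in both cell lines.

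Of the 290 mRNA positions of members with a count in GM01953, 114 had a count at the same nucleotide in DoHH-2 (39.3%, 33.7 to 45.2), against 34.5% over all protein-coding genes other than histone genes. Within 5 nt the shares were 74.1% (68.7 to 79.1) and 63.0%. The members also held more DoHH-2 counts per kb than those genes, and the part of this density in the shares was not tested.

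The base at the cross-link position of the members was T in 41.6% of 6507 mRNA positions in DoHH-2 (40.4 to 42.8) and in 37.9% of 290 in GM01953 (32.3 to 43.8), while T made up 25.04% and 25.03% of the same mRNAs. The next base was T in 43.2% and 41.0% and G in 9.82% and 7.93%. The values over all protein-coding genes other than histone genes were close to these, with T at the position in 41.7% and 39.2% and T next to it in 44.02% and 41.7%. Among the 3-letter runs that follow the position, TCA made up 4.78% in DoHH-2 (4.27 to 5.33) and 4.83% in GM01953 (2.66 to 7.97) of the members, where it is 1.66% and 1.65% of all 3-letter runs of their mRNAs. The first 2 DDX5 windows and the DDX39A and DHX15 windows shown above have it. Over all protein-coding genes other than histone genes TCA made up 4.84% and 6.14% of the runs.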

How the data were processed

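eIF4B iCLIP libraries were made from DoHH-2 and GM01953 cells. The cDNA counts per cross-link position were deposited by the authors as raw whole numbers, after duplicate removal, mapping to GRCh38 with HISAT2, pooling of replicates and counting with iCount. The FDR of each position, a p-value type column from iCount peaks, was deposited by the authors too. Versions of these tools and the annotation release are not given in the sources used here. Positions, counted from 0 in the files, were moved to a count from 1, counted once per gene and placed on MANE Select transcripts of GENCODE release 44 in Python 3.11.15 with pandas 2.3.3. Exact (Clopper-Pearson, Poisson or conditional binomial) 95% intervals came from scipy 1.17.1, and sequences were read with samtools 1.23.1 and credited to GRCh38. The floor for a count of 0 was 3 counts. DoHH-2 held 2033156 counts and GM01953 held 167197, so that low values are precise in DoHH-2 alone. No test, SD or pairing was possible on 1 pooled table per cell line. PCR duplicates that remain are not independent molecules.

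The rule for the members uses the gene name alone, but the family, role groups and lists, the list of 12 other helicases among them, were chosen with earlier results of these data known. The named genes are the 12 highest members in DoHH-2 and 8 highest in GM01953, the 2 highest per dominant region, the 4 farthest past the 2-fold threshold in each direction, a list of well-known members, and EIF4A1, EIF4A2 and EIF4A3 with the other helicases. Others named for their role, introns or single positions were chosen after their values were seen. Members on the Y chromosome were left out of every step. DDX58 is the name in the tables of the gene called RIGI in GENCODE. Alternatives concerned the FDR threshold, the denominator, the transcript, the codon flank and the filters. The calls were tested on simulated data.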

Additional observations from a re-analysis of the deposited data

Results flagged for a closer look

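Cross-link counts were also listed under gene names of the same pattern that are not protein coding, which the report does not use. Of these names, 6 lay above the floor of 3 counts in DoHH-2. DDX12P, an unprocessed pseudogene, had 52 counts, and DDX11, a coding gene of similar sequence, had 63. The processed pseudogenes DDX10P2, DDX18P3 and DDX50P2 had 16, 7 and 6 counts, the transcribed pseudogene DHX40P1 had 9 and the antisense RNA DDX11-AS1 had 12. All but 3 of these counts lay at positions with an FDR of 0.05 or more, namely 2 of DDX11-AS1 and 1 of DDX10P2. In GM01953 DDX11-AS1 had 1 count and the others had 0. The part of reads that match both a pseudogene and its coding relative was not tested.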

How the results depend on the processing

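No paired analysis was possible because the replicates were pooled before deposit, and for the same reason no replicate could be left out. Of 63 recomputed single-member ratios, 53 stayed within their intervals and 4 crossed 1, those of DDX39B with an FDR below 0.05 only, by number of positions and on exons only, and that of DDX3X with an FDR below 0.05 only. No member past the 2-fold threshold turned. The members' 5592 CPM in DoHH-2 and 4079 in GM01953 became 5093 and 3553 without positions also listed under another gene, 8083 and 6020 when divided by the counts of coding genes without histone genes, and 5147 with an FDR below 0.05 only in DoHH-2. Bound members went from 28 in DoHH-2 to 44 with no FDR threshold, 43 with at least 1 site and 5 with the threshold scaled by depth, and from 7 in GM01953 to 4 with an FDR below 0.01 and 33 with at least 1 site. The ratio of 1.37 became 1.19 with an FDR below 0.05 only and 1.53 by number of positions. Members past the fold threshold, 5 and 1, became 3 and 2 with an FDR below 0.05 only and 8 and 2 at 1.5-fold. With an FDR below 0.05 only, the 3 were DDX21, DHX15 and DDX24 and the 2 were DDX10 and DDX46. DDX39A, DDX18, DHX36, DDX54, DDX31 and DHX38 did not pass the filter on these counts. The 1 higher in GM01953 in the main comparison, DDX31, became 0 by number of positions, where its ratio was 0.713. It became 0 on exons only too, where DDX31 did not pass the filter at a ratio of 0.284. The CDS share in DoHH-2, 44.6%, became 46.2% with an FDR below 0.05 and 46.6% with codon regions of 25 nt. Dominant 5′ UTRs fell from 9 to 1 at 70% or more. Dominant start codons went from 5 to 9 on the longest transcript, 3 at 70%, 2 with 25 nt and 3 above 50 counts. The cause of these shifts was not tested. Depth limits GM01953, where 22 members had 10 counts or more.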

Other observations

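The 2 highest DoHH-2 positions in the DDX5 leader are both the G of the run GTCATCG, which was looked for on the sense strand of the mRNAs after these positions had been seen. The run occurs 7 times in 5 of the 49 member mRNAs with a count in DoHH-2 (10.2%), and its G had a count at 5 of the 7. Among the 5 are the 2 DDX5 positions that the run was taken from, with 29 and 13 of the 45 counts. In GM01953 the run had a count at its G in 1 of 7 occurrences, at nt 47 of DDX5. Over all protein-coding genes other than histone genes it occurs in 9.18% of the mRNAs, and its G had a count at 191 of 1088 occurrences in DoHH-2 (17.6%) and at 17 of 832 in GM01953 (2.04%), where 1.73% and 0.138% of all nucleotides of these mRNAs had a count. These are shares over one table per cell line, and what they reflect was not tested.

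In the coding sequence, 35.3% of the 4114 member positions in DoHH-2 fell on the first base of a codon (33.9 to 36.8), 31.8% on the second and 32.8% on the third, against 36.5%, 30.6% and 32.9% over all protein-coding genes other than histone genes. In GM01953 the members had 32.3%, 34.9% and 32.8% of 186 positions, with intervals that overlapped each other.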
